A study of Mus musculus with 18 samples.

Results

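Hepatocytes collected from wild-type (WT) mice and treated with conditioned medium of Kupffer cells were compared with WT hepatocytes treated with TGFb. The comparison holds 6 of the 18 libraries of the series, chosen by their labels, with 3 libraries of each treatment, and covers all genes of the deposited table. The conditioned medium (CM) came from Kupffer cells, the resident macrophages of the liver, that had themselves been treated with EVPs of Py8119, a mouse mammary tumour line. All livers were labelled normal and free of tumour, and the WT mice were matched in age to Mtdh knockout (KO) mice, whose hepatocytes were given the same treatments in 6 further libraries. The sources used here give neither doses and treatment times nor the sex and age of the mice. CM is a mixture whose makeup the labels do not state. No untreated group is part of the comparison, so a gene that is higher with CM and a gene that is lower with TGFb cannot be told apart, and "higher" and "lower" below describe CM relative to TGFb.

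TGFb binds a type II receptor, which activates the type I receptor Tgfbr1. The activated receptor phosphorylates Smad2 and Smad3, which enter the nucleus and switch on target genes. Among those targets are inhibitors of the pathway itself, such as Smad7, Skil and Pmepa1, which close a feedback loop. In liver, TGFb is known for growth arrest, for matrix production and for a shift of hepatocytes towards a less differentiated state. Activated Kupffer cells are known to release tumour necrosis factor, interleukins and interferons, which act on hepatocytes through NF-kappaB, STAT3 and the interferon-response factors and give the acute-phase response.

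Depth, estimated from the deposited values, was 21.8, 23 and 21.3 M reads with CM and 23.7, 20.4 and 19.4 M reads with TGFb. Replicates correlated at 0.952 to 0.961 with CM and at 0.946 to 0.954 with TGFb, and libraries of different treatments at 0.926 to 0.948 (Pearson, log2 values). The 6 hepatocyte markers Alb, Hnf4a, Ttr, Cps1, Apoa1 and Cyp2e1 summed to 7.59 to 7.74% of a library with CM and to 8.38 to 8.84% with TGFb. Markers of other liver cells were present at a far lower level. The 25 Kupffer cell and macrophage markers summed to 0.0188 to 0.0231% of a library with CM and to 0.0167 to 0.0195% with TGFb. The 19 sinusoidal endothelial markers summed to 0.0148 to 0.0189% with CM and to 0.0173 to 0.0186% with TGFb, and the 13 cholangiocyte markers to 0.0302 to 0.0437% with CM and to 0.0410 to 0.0420% with TGFb. Of 16 stellate cell markers, Gfap and Ngfr were at 0 in all 6 libraries. Mtdh, the gene deleted in the KO mice, read 719.5 to 973 in the KO libraries of these treatments. In WT cells it read 12253, 10063 and 12012 with CM, against 13598, 13725 and 12873 with TGFb. The Mtdh levels of the 2 WT groups did not overlap, but the difference did not pass the test (log2 fold change -0.23 ± 0.11, limma adjusted p = 0.17).

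Of 14455 genes tested, 832 (5.76%) were higher and 880 (6.09%) lower with CM at a limma adjusted p below 0.05, which together is 11.8% of the genes tested. The median log2 fold change over all genes tested was 0.0216. A log2 fold change of at least 1 in size was reached by 259 of the higher and 159 of the lower genes. Without regard to the test, the 3 CM libraries lay above all 3 TGFb libraries for 2112 genes (14.6%) and below them for 1902 genes (13.2%). When each library was scaled to an equal total, 1102 genes were higher and 626 lower, so that 63.8% of the calls were higher in place of 48.6%. With only the 6 libraries compared in the fit, 570 were higher and 582 lower. Of the genes named by rule below, Sox9, Icam1, Lyz2, Saa1, Saa3, Ch25h and Zfp599 did not pass in that fit (limma adjusted p = 0.051 to 0.074). Of the 42 gene lists examined, cholesterol synthesis and uptake had the largest share of members higher with CM, and the TGFb feedback and target genes the largest share lower with CM. The lists were chosen with earlier results of these data known, so this order is a description and not a test.

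**Figure D1:**
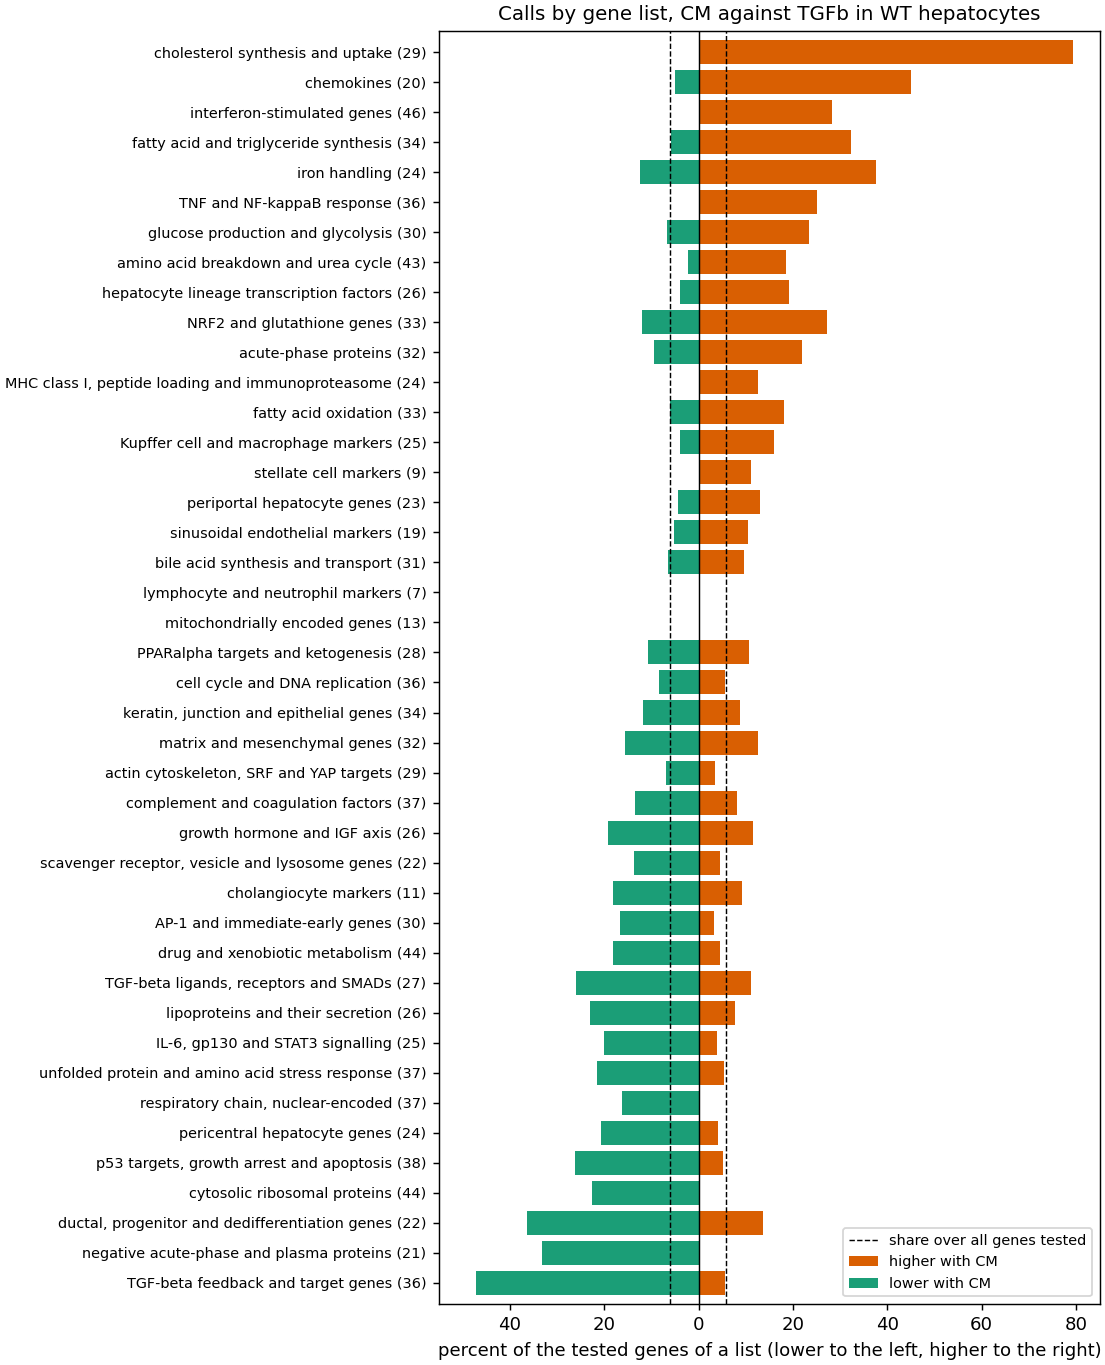
Share of the tested genes of each of 42 gene lists that were called higher with CM (orange, to the right) or lower with CM (green, to the left) than with TGFb in WT hepatocytes, in percent, with the number of tested genes in brackets. Dashed lines mark the share over all 14455 genes tested, 5.76% higher and 6.09% lower. Cholesterol synthesis and uptake stands at the top with 79.3% higher, and TGFb feedback and target genes at the bottom with 47.2% lower.

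Many genes that TGFb signalling is known to induce were lower with CM. Of 36 TGFb feedback and target genes, all tested, 17 were lower, 2 were higher (1 without the third CM, the first TGFb or the third TGFb library) and 17 did not pass, with a median log2 fold change of -0.62, against 0.0216 over all genes tested. Pmepa1, a membrane protein that sequesters the receptor SMADs, had a normalized value of 209, 238 and 247 with CM, against 1593, 1463 and 1763 with TGFb. No CM library came near a TGFb library, and the TGFb mean was 6.94 times the CM mean (log2 fold change -2.79 ± 0.17, limma adjusted p = 9.0e-13). Smad7, the inhibitory SMAD that leads the receptor to degradation, read 308, 291 and 197 with CM, against 880.0, 1067 and 835 with TGFb. The treatments were again far apart, with the lowest CM value in the third library (log2 fold change -1.82 ± 0.17, limma adjusted p = 6.3e-09). Skil, a co-repressor that binds the SMAD complex, read 5055, 4984 and 5450.4 with CM, against 10033, 9879 and 10198 with TGFb, which is a narrow spread within each treatment (log2 fold change -0.96 ± 0.08, limma adjusted p = 3.9e-10). Its relative Ski read 1057, 1509 and 1099 with CM, against 1803, 1867 and 1684 with TGFb, with the second CM library closest to the TGFb libraries (log2 fold change -0.56 ± 0.13, limma adjusted p = 0.0027). Smurf2, a ubiquitin ligase that partners Smad7, read 3111, 3016 and 3448 with CM, against 4043, 4055 and 4134 with TGFb, a smaller difference without overlap (log2 fold change -0.36 ± 0.09, limma adjusted p = 0.0048).

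Among the target genes proper, Ccn2, a secreted matricellular protein linked to fibrosis, read 2671, 2746 and 3369.7 with CM, against 7780.1, 8517 and 8056 with TGFb. The CM libraries stayed below all TGFb libraries (log2 fold change -1.48 ± 0.11, limma adjusted p = 5.1e-11). Junb, a subunit of the AP-1 transcription factor, read 978, 1006 and 1112 with CM, against 2686, 2664 and 2819.5 with TGFb (log2 fold change -1.40 ± 0.10, limma adjusted p = 8.9e-12). Reads of Junb may include those of Prdx2, which it overlaps on the opposite strand, since the use of strand in the counting is not given in the sources used here. Cdkn1a, the cell cycle inhibitor p21, read 2895, 3832 and 3391 with CM, against 5138, 5378 and 5141 with TGFb, without overlap (log2 fold change -0.64 ± 0.10, limma adjusted p = 4.9e-05). The SMAD box CAGAC, a short sequence that SMAD proteins bind, was present in 9 of 16 promoters (56.2%) of 10 of the 17 lower genes, against 49.6% of 32851 RefSeq promoters of the same length.

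Tgfbi, Id1, Id3 and Bambi, which respond to TGFb or the related BMP ligands, did not pass the test. Tgfbi, a matrix protein, was low, without overlap, at 12.9, 19.6 and 8.87 with CM, against 20.4, 33.4 and 21.2 with TGFb (log2 fold change -0.84 ± 0.88, limma adjusted p = 0.62). Id1, an inhibitor of helix-loop-helix factors, read 73.4, 48.8 and 34.0 with CM, against 125, 79.9 and 56.1 with TGFb, with overlap between the treatments (log2 fold change -0.72 ± 0.54, limma adjusted p = 0.45). Its relative Id3 read 708, 574 and 593 with CM, against 724, 713 and 899.5 with TGFb, where the highest CM value lay just below the lowest TGFb value (log2 fold change -0.32 ± 0.14, limma adjusted p = 0.15). Bambi, a decoy receptor, read 63.7, 30.2 and 35.1 with CM, against 76.6, 71.5 and 42.4 with TGFb and overlapped as well (log2 fold change -0.58 ± 0.58, limma adjusted p = 0.60).

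Genes of the pathway machinery held calls in both directions, with more of them lower. Of 27 ligands, receptors and SMADs, all tested, 7 (25.9%) were lower and 3 (11.1%) higher (1 without the second CM library), with a median of -0.30. Over all genes tested 6.09% were lower and 5.76% higher. Tgfbr1, the signalling type I receptor, read 6142, 5353 and 5709 with CM, against 17758, 17895 and 18811 with TGFb. The TGFb mean was 3.17 times the CM mean, and the spread within each treatment was small (log2 fold change -1.66 ± 0.08, limma adjusted p = 2.2e-15). Tgfbr2, the receptor that binds the ligand, went the other way and read 1630.2, 1739 and 1298 with CM, against 840.3, 1074 and 1165 with TGFb. The lowest CM library lay above the highest TGFb library (log2 fold change 0.60 ± 0.14, limma adjusted p = 0.0028). Smad2 was lower at 2015, 2407 and 2355 with CM, against 3087, 3082 and 3287 with TGFb (log2 fold change -0.48 ± 0.09, limma adjusted p = 0.00046), whereas Smad3 read 2188, 2349 and 1754 with CM, against 1605, 1713 and 1810.3 with TGFb and overlapped. Smad3 did not pass (log2 fold change 0.29 ± 0.11, limma adjusted p = 0.083), but it did without the third CM library (0.41, adjusted p = 0.011) and with equal totals (0.36, adjusted p = 0.035).

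The lower genes included some that release or store TGFb, and a receptor for related ligands. Thbs1, thrombospondin, which activates latent TGFb, read 824, 1008 and 788 with CM, against 1669, 2063 and 1939.9 with TGFb (log2 fold change -1.12 ± 0.14, limma adjusted p = 1.3e-06). Ltbp3, a binding protein of latent TGFb, read 47.5, 61.5 and 37.3 with CM, against 321, 351 and 424 with TGFb (log2 fold change -2.90 ± 0.39, limma adjusted p = 3.3e-06), and its reads may include those of an overlapping gene. Acvr1, a type I receptor for BMPs and activins, read 700.3, 901 and 625 with CM, against 1497, 1552 and 1658 with TGFb (log2 fold change -1.09 ± 0.13, limma adjusted p = 3.4e-07). None of the 3 showed overlap between the treatments. Tgfb1, the ligand, was low and overlapped at 47.6, 75.4 and 41.7 with CM, against 73.3, 46.7 and 84.7 with TGFb (log2 fold change -0.31 ± 0.40, limma adjusted p = 0.70).

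**Figure D2:**
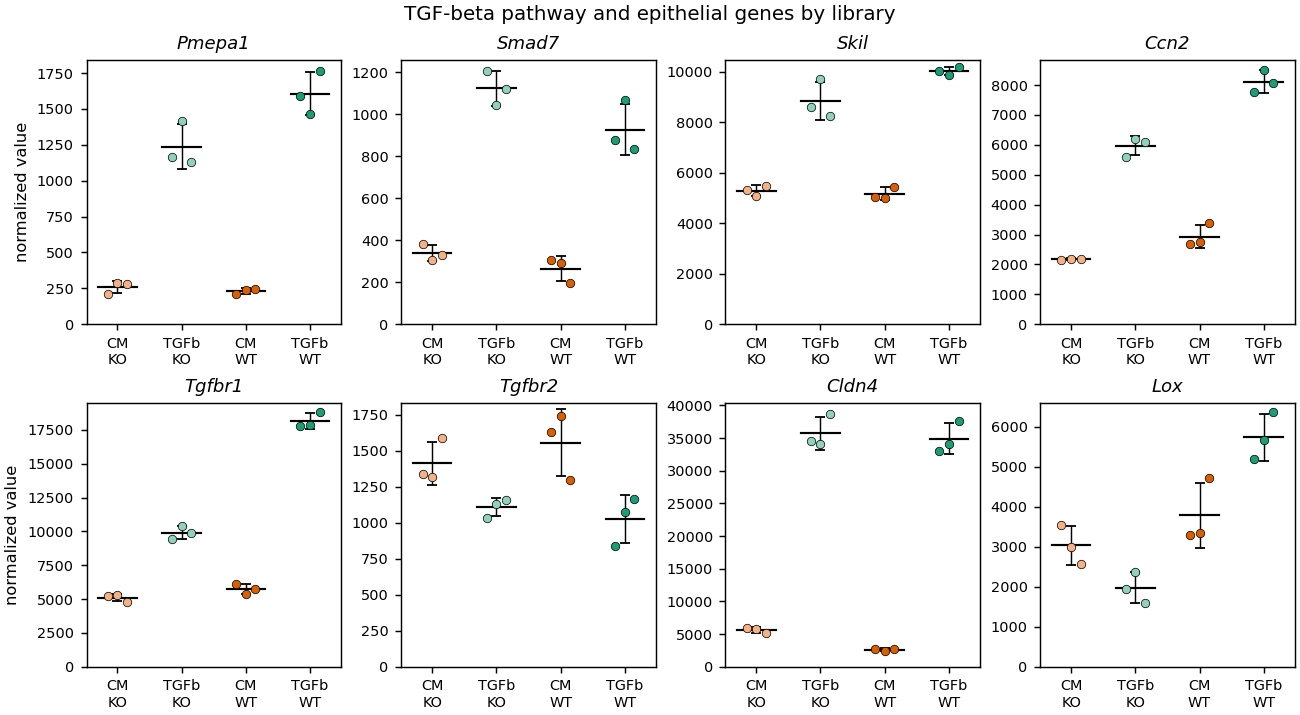
Normalized value (linear axis from 0) of 8 genes in each library, with groups from left to right CM KO, TGFb KO, CM WT and TGFb WT; points are libraries, horizontal bars the mean and vertical bars the SD of 3 libraries. Pmepa1, Smad7, Skil, Ccn2, Tgfbr1 and Cldn4 lie lower with CM than with TGFb in both genotypes, and Lox lies higher with CM in KO cells but lower with CM in WT cells.

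The 12 largest falls with CM included genes of cell junctions and epithelia. Cldn4, a tight junction claudin, was among the abundant messages with TGFb and read 2785, 2395 and 2689 with CM, against 33084, 34029.8 and 37676 with TGFb. The TGFb mean was 13.3 times the CM mean, with no overlap (log2 fold change -3.74 ± 0.09, limma adjusted p = 1.3e-22). Vill, a villin-like actin regulator, read 25.9, 18.5 and 7.68 with CM, against 536, 399 and 557 with TGFb (log2 fold change -4.89 ± 0.53, limma adjusted p = 7.4e-08). Emp1, an epithelial membrane protein, read 150.0, 242 and 243 with CM, against 1958, 2190.3 and 2179 with TGFb, so that every TGFb library stood far above every CM library (log2 fold change -3.34 ± 0.19, limma adjusted p = 2.4e-13).

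The other large falls included genes best known from neural cells. Ret, the receptor tyrosine kinase of the GDNF ligands, read 11.9, 11.7 and 8.77 with CM, against 135, 264 and 228 with TGFb (log2 fold change -4.11 ± 0.89, limma adjusted p = 0.0019). Arc, an immediate-early gene best known from neurons, read 16.2, 8.78 and 17.5 with CM, against 218, 292 and 252 with TGFb (log2 fold change -4.12 ± 0.58, limma adjusted p = 8.4e-06), and Bex2, a brain-expressed X-linked gene, read 16.2, 33.2 and 25.2 with CM, against 309, 259.9 and 310.2 with TGFb (log2 fold change -3.56 ± 0.53, limma adjusted p = 1.6e-05). Each of these was low with CM and moderate with TGFb. Adgra1, an adhesion receptor coupled to G proteins, was listed at 0 in all 3 CM libraries and read 100, 125 and 152 with TGFb (limma adjusted p = 8.7e-06). Mroh4 read 0, 2.93 and 0 with CM, against 162, 113 and 115 with TGFb (log2 fold change -6.36 ± 1.09, limma adjusted p = 0.00012) and Mab21l4 1.08, 5.85 and 13.2 with CM, against 206, 404 and 278 with TGFb (log2 fold change -5.61 ± 0.84, limma adjusted p = 1.8e-05). Psg22 read 41.0, 122 and 50.4 with CM, against 1499, 1867 and 1993 with TGFb (log2 fold change -4.79 ± 0.37, limma adjusted p = 7.5e-11), and it belongs to a family of near-identical pregnancy-specific glycoprotein genes, so its own share of the reads is uncertain. The fold changes of genes near 0 with CM depend on the pseudocount of 1.

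Mesenchymal and matrix genes were mixed. Of 39 genes in the list, 32 passed the filter on low values, 5 were lower and 4 higher, with a median of -0.09. S100a6, a calcium-binding protein of dedifferentiating cells, read 467, 423 and 513 with CM, against 2329, 2205 and 2611 with TGFb (log2 fold change -2.35 ± 0.14, limma adjusted p = 7.9e-13). Vim, the mesenchymal intermediate filament vimentin, read 1187, 1646 and 2213 with CM, against 4406, 4495 and 4675 with TGFb, with the third CM library highest and still below all TGFb libraries (log2 fold change -1.47 ± 0.13, limma adjusted p = 2.2e-09). Sparc, a matricellular protein, read 114, 202 and 154 with CM, against 348, 384 and 330.2 with TGFb (log2 fold change -1.21 ± 0.25, limma adjusted p = 0.0010). Col4a1, a chain of basement membrane collagen, was higher at 1359, 1239.9 and 1029 with CM, against 686, 736 and 650.4 with TGFb (log2 fold change 0.80 ± 0.12, limma adjusted p = 2.4e-05); it shares a border with Col4a2 on the opposite strand. Lox, the enzyme that cross-links collagen, read 3288, 3355 and 4724 with CM, against 5189.8, 5668 and 6366 with TGFb (log2 fold change -0.62 ± 0.13, limma adjusted p = 0.0019). Without the second CM library 1 gene of the list was higher in place of 4. Of 29 tested targets of SRF and YAP and genes of the actin cytoskeleton, 1 was higher and 2 were lower, with 1 lower without the second CM or the second TGFb library, and 2 higher and 1 lower with equal totals. The shares of 3.45% higher and 6.9% lower were near the 5.76% and 6.09% over all genes tested.

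Keratin, junction and epithelial genes showed a mixed pattern as well, with 4 (11.8%) lower and 3 (8.82%) higher of 34 tested. Over all genes tested the shares were 6.09% and 5.76%. Cdh1, E-cadherin, read 3429, 3188 and 2465 with CM, against 4805, 4959 and 4955 with TGFb (log2 fold change -0.71 ± 0.11, limma adjusted p = 2.0e-05). The desmosome genes Dsg2, at 8833 ± 524 with CM and 14537 ± 659 with TGFb (-0.72 ± 0.08, adjusted p = 1.9e-07), and Dsp, at 11615 ± 922 with CM and 18309 ± 478 with TGFb (-0.66 ± 0.09, adjusted p = 2.0e-06; normalized values, mean ± SD, n = 3 each), were lower as well. Of 22 tested ductal, progenitor and dedifferentiation genes, 8 were lower and 3 higher (1 without the third CM library), while with equal totals 5 were lower and 5 higher, and without any one library except the third CM library 4 or 5 were lower. Cd44, the hyaluronan receptor of progenitor cells, read 1226, 1103 and 1221 with CM, against 1596, 1918 and 2093 with TGFb (log2 fold change -0.65 ± 0.11, limma adjusted p = 0.00010). Sox9, the ductal transcription factor, read 7991, 4810.2 and 5499 with CM, against 8704, 8686 and 8153 with TGFb and did not pass without the second CM library, which is the lowest (main value -0.51 ± 0.13, adjusted p = 0.0084; without it -0.36, adjusted p = 0.087). Afp, the fetal albumin, was higher at 129, 99.5 and 136 with CM, against 33.7, 35.8 and 38.6 with TGFb (log2 fold change 1.72 ± 0.43, limma adjusted p = 0.0073).

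Among the large rises were genes of the epidermal barrier. Ivl, involucrin of the cornified envelope, read 494, 468 and 517 with CM, against 38.8, 15.5 and 19.9 with TGFb, and the CM mean was 19.9 times the TGFb mean (log2 fold change 4.37 ± 0.44, limma adjusted p = 1.8e-08). Crct1, a cysteine-rich protein of the same structure, read 499.6, 216 and 638 with CM, against 32.7, 10.7 and 29.9 with TGFb (log2 fold change 4.16 ± 0.40, limma adjusted p = 6.9e-09). Sprr1a, a small proline-rich envelope protein, was abundant and read 15634, 19699 and 19489.8 with CM, against 6657, 5681 and 6770.3 with TGFb (log2 fold change 1.52 ± 0.12, limma adjusted p = 2.0e-10). All of these were higher in each CM library than in any TGFb library. The 3 genes lie together in the epidermal differentiation complex of mm39, with Sprr1a at chromosome 3, 92391259 to 92393202, Ivl at chromosome 3, 92478209 to 92481042 and Crct1 at chromosome 3, 92921512 to 92922994, all on the minus strand.

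Chemokines were the inflammatory group with the largest share of members higher with CM. Of 25 genes in the list, 24 were in the table and 20 were tested, of which 9 were higher, 1 was lower and 10 did not pass, with a median log2 fold change of 1.37. Cxcl1, which attracts neutrophils, read 829, 737 and 859 with CM, against 179.7, 156 and 153 with TGFb. The CM mean was 4.96 times the TGFb mean (log2 fold change 2.30 ± 0.17, limma adjusted p = 2.8e-11). Ccl2, which attracts monocytes, read 1849, 1398 and 2051 with CM, against 319, 348 and 435 with TGFb, with the second CM library lowest and still far above TGFb (log2 fold change 2.26 ± 0.17, limma adjusted p = 8.4e-11). Cxcl2, a neutrophil chemokine next to Cxcl1 in the genome, read 546, 444 and 508 with CM, against 158, 209.8 and 126 with TGFb (log2 fold change 1.62 ± 0.22, limma adjusted p = 3.3e-06). Cxcl5, of the same family, was low and read 133, 79.0 and 95.4 with CM, against 15.3, 2.38 and 23.7 with TGFb (log2 fold change 3.19 ± 0.63, limma adjusted p = 0.00070). Cxcl12, the constitutive chemokine that holds CXCR4-bearing cells, was the lower member at 828, 926 and 869 with CM, against 2329, 1825 and 2117 with TGFb (log2 fold change -1.25 ± 0.12, limma adjusted p = 7.4e-09).

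Genes of the TNF and NF-kappaB response were higher in part. Of 36 genes, all tested, 9 were higher, 0 were lower at the limma threshold and 27 did not pass (median 0.29). Tnfaip3, the deubiquitinase A20 that shuts NF-kappaB off, read 2482, 2886 and 2474 with CM, against 1486, 1743 and 1561 with TGFb (log2 fold change 0.71 ± 0.10, limma adjusted p = 5.1e-06). Sod2, the mitochondrial superoxide dismutase, read 7086, 5610.4 and 6095 with CM, against 3920.2, 4147 and 3523 with TGFb (log2 fold change 0.69 ± 0.09, limma adjusted p = 4.0e-06). Tnfaip2 read 637, 538 and 431 with CM, against 325, 275 and 326 with TGFb (log2 fold change 0.78 ± 0.16, limma adjusted p = 0.00076) and Csf1, the macrophage growth factor, 1158, 1074 and 1058 with CM, against 622, 698 and 819 with TGFb (log2 fold change 0.63 ± 0.13, limma adjusted p = 0.0010). In each of the 4 the treatments did not overlap. Nfkbiz, a nuclear I-kappaB protein, read 1091, 1219 and 1048 with CM, against 736, 857 and 690.2 with TGFb (log2 fold change 0.56 ± 0.14, limma adjusted p = 0.0071). Icam1, the leukocyte adhesion molecule, read 2597, 1645 and 1900.2 with CM, against 1459.7, 1324 and 1441 with TGFb, where the first CM library is the highest (log2 fold change 0.51 ± 0.15, limma adjusted p = 0.019). Icam1 did not pass without that library (0.33, adjusted p = 0.19) or without the second TGFb library (0.47, adjusted p = 0.080). Nfkbia, the inhibitor I-kappaB alpha, read 1091, 1323 and 1053 with CM, against 1015, 898 and 796 with TGFb and did not pass (log2 fold change 0.36 ± 0.13, limma adjusted p = 0.074), although it did with equal totals (0.42, adjusted p = 0.030).

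The promoters of Cxcl1 and Tnfaip3 are shown because both genes were higher with CM and their start regions hold the letters of a kappaB site, the sequence that NF-kappaB dimers bind. Each runs from 250 bases before to 50 bases after the gene start, 5′ to 3′ on the gene's strand, from RefSeq on GRCm38.p6, a build other than the mm39 of the deposited table. Capitals mark matches, on either strand, to GGG followed by any 2 bases and TTTCC. Cxcl1 is chr5:90890995-90891294 on the plus strand and Tnfaip3 chr10:19015361-19015660 on the minus strand.
Cxcl1: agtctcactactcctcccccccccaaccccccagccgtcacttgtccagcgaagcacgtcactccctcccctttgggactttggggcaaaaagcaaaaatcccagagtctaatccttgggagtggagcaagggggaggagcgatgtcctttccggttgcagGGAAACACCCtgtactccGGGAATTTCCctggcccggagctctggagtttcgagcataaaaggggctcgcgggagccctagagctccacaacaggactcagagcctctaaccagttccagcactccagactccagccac
Tnfaip3: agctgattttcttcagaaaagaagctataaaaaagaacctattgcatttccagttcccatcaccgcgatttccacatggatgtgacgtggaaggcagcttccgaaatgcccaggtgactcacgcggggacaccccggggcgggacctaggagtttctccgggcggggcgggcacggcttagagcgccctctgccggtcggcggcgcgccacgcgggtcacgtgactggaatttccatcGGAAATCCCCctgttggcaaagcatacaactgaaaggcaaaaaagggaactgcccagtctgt
Of the 9 chemokines higher with CM, 6 had a promoter in the RefSeq table, and 3 of these 6 promoters held a match. Of the 9 higher NF-kappaB genes, 7 matched with 8 promoters, 3 of which held one. Over all 32851 promoters of the same length the share was 1.63%. A match describes letters and not a bound site. No share was taken for members of these lists without a call. The shares therefore cannot tell genes higher with CM from the rest of their lists.

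**Figure D3:**
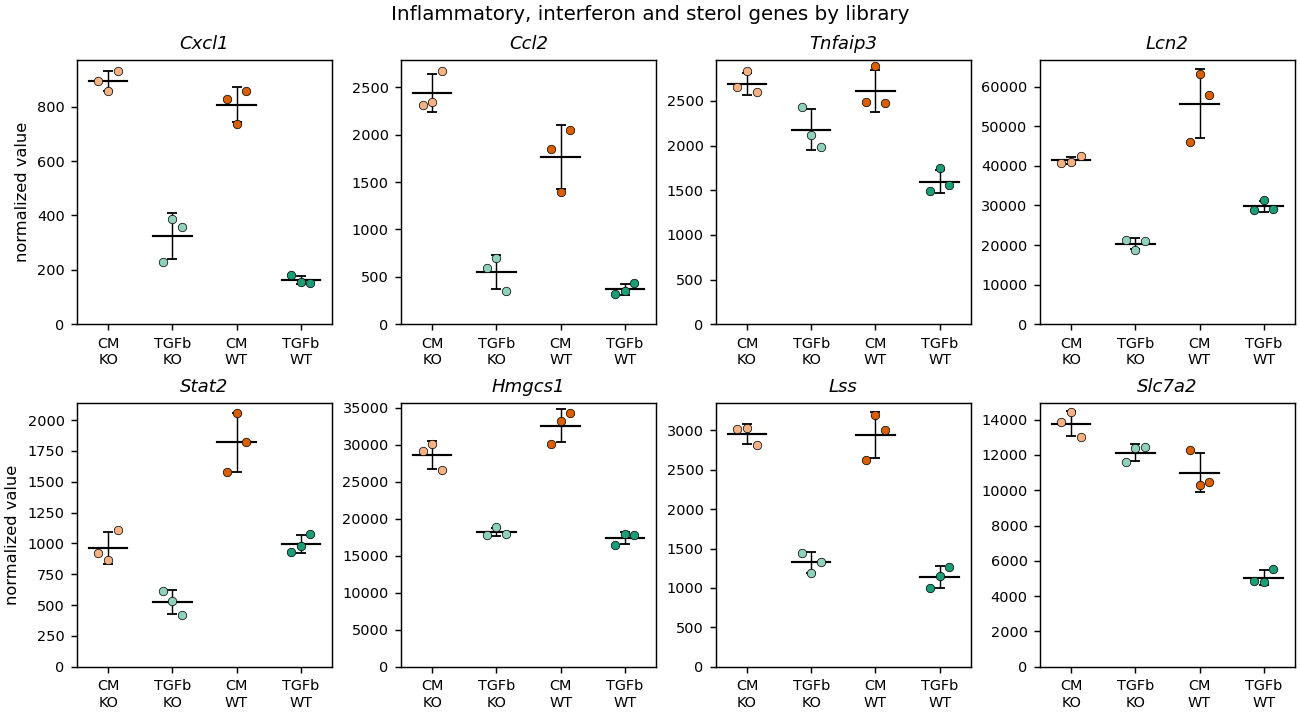
Normalized value (linear axis from 0) of 8 genes in each library, with groups from left to right CM KO, TGFb KO, CM WT and TGFb WT; points are libraries, horizontal bars the mean and vertical bars the SD of 3 libraries. Cxcl1, Ccl2, Lcn2, Stat2, Hmgcs1 and Lss lie higher with CM than with TGFb in both genotypes, and Slc7a2 is at 10283 to 12254 with CM and 4793 to 5516 with TGFb in WT cells.

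Interferon-stimulated genes were higher in part. Of 47 genes, 46 were in the table and tested, 13 were higher, 0 were lower at the limma threshold and 33 did not pass (median 0.42). Without the first or without the third TGFb library 8 were higher. Stat2, a transcription factor of type I interferon signalling, read 1576, 2057 and 1824 with CM, against 929, 978 and 1079.5 with TGFb (log2 fold change 0.86 ± 0.16, limma adjusted p = 0.00034). Rigi, the cytosolic sensor of viral RNA, read 2134, 2381 and 2033 with CM, against 1073, 1381 and 1300.1 with TGFb (log2 fold change 0.81 ± 0.12, limma adjusted p = 2.7e-05). Parp14 read 4079.9, 4469 and 3834 with CM, against 2427, 3211 and 2371 with TGFb (log2 fold change 0.64 ± 0.11, limma adjusted p = 0.00014) and Trim25, a ubiquitin ligase acting on Rigi, 7923, 7146 and 7139 with CM, against 5306, 5617 and 5705 with TGFb (log2 fold change 0.42 ± 0.08, limma adjusted p = 0.00072). The CM libraries of these 4 genes lay above all TGFb libraries.

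Several of the best-known interferon targets did not pass. Isg15, a ubiquitin-like modifier, read 149, 191 and 248 with CM, against 132, 281 and 218 with TGFb and overlapped (log2 fold change -0.07 ± 0.30, limma adjusted p = 0.93). Irf7, which overlaps Phrf1 on the opposite strand, read 317, 332 and 356 with CM, against 245, 300.5 and 222 with TGFb (log2 fold change 0.40 ± 0.25, limma adjusted p = 0.35), and Irf1 459.6, 600.4 and 382 with CM, against 341, 394 and 442 with TGFb (log2 fold change 0.27 ± 0.20, limma adjusted p = 0.44). These 3 transcripts thus gave no call in either direction. The chemokines that interferon gamma induces, Cxcl9 at 184, 137 and 123 with CM, against 76.6, 113 and 96.6 with TGFb (log2 fold change 0.62 ± 0.35, limma adjusted p = 0.29) and Cxcl10 at 436, 425 and 502 with CM, against 511, 767 and 446 with TGFb (log2 fold change -0.30 ± 0.20, limma adjusted p = 0.39), did not pass. Cxcl10 overlaps Art3. Psmb9, an immunoproteasome subunit that overlaps Tap1, was low at 22.9, 97.5 and 39.5 with CM, against 55.1, 20.3 and 24.9 with TGFb (log2 fold change 0.54 ± 0.63, limma adjusted p = 0.66), and Cd274, the checkpoint ligand PD-L1, read 1171, 1251 and 1161 with CM, against 1450.2, 1623 and 1548 with TGFb with all CM libraries below TGFb but no call (log2 fold change -0.37 ± 0.14, limma adjusted p = 0.097). Of 24 tested genes of MHC class I and antigen processing, 3 were higher and 0 lower at the limma threshold, and 1 was higher without the first CM library. One of them, H2-Q7, read 1786, 1781 and 1496 with CM, against 1171, 961 and 1296 with TGFb (log2 fold change 0.57 ± 0.12, limma adjusted p = 0.0017), and its reads may be shared with other class I genes.

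The promoter of Stat2 is shown as that of a gene higher with CM which holds the letters of an interferon response element. It is chr10:128270248-128270547 of GRCm38.p6 on the plus strand, and capitals mark a match to GAAA, any 2 bases and GAAA, here on the opposite strand.
Stat2: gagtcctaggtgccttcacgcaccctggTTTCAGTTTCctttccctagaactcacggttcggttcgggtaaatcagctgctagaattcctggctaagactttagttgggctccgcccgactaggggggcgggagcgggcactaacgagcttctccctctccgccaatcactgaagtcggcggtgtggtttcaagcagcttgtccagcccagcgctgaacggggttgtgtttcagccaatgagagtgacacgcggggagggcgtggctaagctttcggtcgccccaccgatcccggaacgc
Of the 13 interferon-stimulated genes higher with CM, 7 had 8 promoters in the table, and 4 of the 8, from 3 genes, held a match. The share over all 32851 promoters was 3.44%.

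Several genes known from macrophages were higher with CM. Itgam, the integrin chain CD11b, read 98.2, 139 and 139 with CM, against 14.3, 15.5 and 13.7 with TGFb (log2 fold change 3.01 ± 0.43, limma adjusted p = 8.8e-06), and it overlaps a predicted gene on the same strand. Cd163, the macrophage receptor for haemoglobin, read 74.6, 90.7 and 128 with CM, against 4.08, 3.58 and 23.7 with TGFb (log2 fold change 3.54 ± 0.83, limma adjusted p = 0.0040). Ccl6, a CC chemokine of rodents with close relatives, read 170.5, 114 and 83.3 with CM, against 7.15, 13.1 and 0 with TGFb (log2 fold change 4.61 ± 0.72, limma adjusted p = 3.5e-05). Msr1, a scavenger receptor, read 256, 182 and 201 with CM, against 35.7, 35.8 and 61.0 with TGFb (log2 fold change 2.27 ± 0.26, limma adjusted p = 2.5e-07), and Slc40a1, the iron exporter of hepatocytes and macrophages, 1366, 1448 and 1472 with CM, against 829, 831 and 819 with TGFb (log2 fold change 0.79 ± 0.11, limma adjusted p = 5.1e-06). The CM libraries were above the TGFb libraries for each of these genes.

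Over the whole list of 25 Kupffer cell and macrophage markers, 4 were higher, 1 was lower and 20 did not pass, with a median of 0.23, and 7 were higher without the second TGFb library. The member that was lower was Lyz2, lysozyme, at 324, 361 and 398 with CM, against 486, 602 and 494 with TGFb (log2 fold change -0.54 ± 0.13, limma adjusted p = 0.0039). The summed level of the list was 4403, 5188 and 5150 with CM, against 4079, 4751 and 4050 with TGFb, and Timd4, a marker of resident Kupffer cells, was at 0 in the TGFb libraries. In bulk samples, more cells of a type and more RNA per cell cannot be told apart. The part of macrophages in these rises was not tested. The 21 lymphocyte and neutrophil markers summed to 812.4, 539.9 and 643.3 with CM, against 411.4, 486.9 and 532.7 with TGFb, with 7 markers at 0 with CM and 8 with TGFb. Of the 19 endothelial markers 2 were higher (1 without the second CM library) and 1 lower (0 without the second CM, the third CM, the second TGFb or the third TGFb library). Of 9 tested stellate markers 1 was higher, and 0 without the first CM, the second CM, the second TGFb or the third TGFb library. Of 11 tested cholangiocyte markers 1 was higher and 2 were lower, with 0 lower without the second CM library and 1 without the first CM or the third TGFb library. By limma 0 of 7 tested lymphocyte and neutrophil markers were called, and 1 without the second CM library. Over all genes tested 5.76% were higher and 6.09% lower. Lyve1, an endothelial receptor, was higher at 152, 191 and 202 with CM, against 64.3, 39.3 and 98.4 with TGFb (log2 fold change 1.5 ± 0.30, limma adjusted p = 0.00080), while the summed endothelial list overlapped between the treatments.

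Of the other large rises, Adgrg2, an adhesion receptor coupled to G proteins, read 1127, 978 and 849.9 with CM, against 167, 237 and 108 with TGFb (log2 fold change 2.58 ± 0.23, limma adjusted p = 1.9e-09). Arg2, the mitochondrial arginase, which overlaps Vti1b, read 113, 126 and 163 with CM, against 12.7, 27.9 and 10.3 with TGFb (log2 fold change 3.01 ± 0.61, limma adjusted p = 0.00082), and Cd55, which protects cells from complement, 74.5, 72.2 and 125 with CM, against 7.15, 11.9 and 22.4 with TGFb (log2 fold change 2.71 ± 0.57, limma adjusted p = 0.0013). The treatments did not overlap for any of them. Gvin1, a very large GTPase induced by interferon with close copies in the genome, read 1373, 1208 and 1197 with CM, against 8.02, 488 and 67.6 with TGFb (log2 fold change 4.23 ± 0.69, limma adjusted p = 5.8e-05), and without the first TGFb library, the lowest, the log2 fold change was 2.78. Ch25h, which makes an oxysterol that dampens sterol synthesis, read 63.7, 81.8 and 128 with CM, against 26.5, 21.5 and 1.42 with TGFb (log2 fold change 2.95 ± 0.70, limma adjusted p = 0.0041) and did not pass without the third TGFb library (1.83, adjusted p = 0.060). Zfp599, a zinc finger protein, read 65.8, 97.6 and 94.3 with CM, against 28.6, 2.38 and 21.2 with TGFb (log2 fold change 2.71 ± 0.66, limma adjusted p = 0.0050) and did not pass without the second TGFb library (1.74, adjusted p = 0.064).

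Acute-phase proteins, the plasma proteins that the liver secretes in inflammation, were divided. Of 35 genes, 33 were in the table and 32 tested, 7 were higher and 3 lower (median 0.05). Lcn2, lipocalin that withholds iron from bacteria, read 46058, 63096 and 57959.5 with CM, against 28802, 31419 and 29059 with TGFb (log2 fold change 0.89 ± 0.10, limma adjusted p = 1.1e-07). Cp, the copper oxidase ceruloplasmin, read 37339, 34811 and 36886 with CM, against 21060.3, 21967 and 19082 with TGFb (log2 fold change 0.81 ± 0.09, limma adjusted p = 5.5e-08); it overlaps Hps3 on the opposite strand. Hp, haptoglobin, read 7354, 9786 and 9478 with CM, against 5957, 6757 and 6206 with TGFb (log2 fold change 0.48 ± 0.11, limma adjusted p = 0.0029). In all 3 the treatments did not overlap. The serum amyloids were less firm. Saa3 read 349, 371 and 506 with CM, against 276, 264 and 219 with TGFb (log2 fold change 0.68 ± 0.20, limma adjusted p = 0.023) and did not pass without the third CM library (0.51, adjusted p = 0.13) or the third TGFb library (0.58, adjusted p = 0.11). Saa1 read 859.9, 804 and 1079.7 with CM, against 559, 735 and 589 with TGFb (log2 fold change 0.54 ± 0.17, limma adjusted p = 0.033) and did not pass without the first CM, the third CM, the first TGFb or the third TGFb library (adjusted p = 0.054 to 0.16). Saa2, whose sequence is close to Saa1, read 194, 195 and 239.6 with CM, against 184, 194 and 194 with TGFb and did not pass (log2 fold change 0.13 ± 0.26, limma adjusted p = 0.82).

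Other genes of the acute phase and of STAT3 signalling did not pass. Fgb, fibrinogen beta, read 33392, 35384 and 39339 with CM, against 37481, 35432 and 35738 with TGFb (log2 fold change -0.01 ± 0.08, limma adjusted p = 0.96). Hamp, hepcidin, which blocks iron export, read 1525, 1599.6 and 1645 with CM, against 1602, 1589 and 1602 with TGFb (log2 fold change -0.01 ± 0.10, limma adjusted p = 0.98), and Lrg1 3209, 3145 and 3496 with CM, against 3404, 2798 and 3356 with TGFb (log2 fold change 0.05 ± 0.10, limma adjusted p = 0.83). These values lay close together across treatments. Orm1, with near copies in the genome, read 3364, 3744 and 5165 with CM, against 3528, 3635 and 3297 with TGFb (log2 fold change 0.21 ± 0.11, limma adjusted p = 0.26), and Serpina3n 20929, 22998 and 22121 with CM, against 24223, 24433 and 26158 with TGFb (log2 fold change -0.18 ± 0.08, limma adjusted p = 0.18). Socs3, the feedback inhibitor of STAT3, was low at 109, 52.7 and 98.7 with CM, against 113, 109 and 117 with TGFb (log2 fold change -0.44 ± 0.38, limma adjusted p = 0.52), and Stat3, which overlaps Stat5a, read 3327, 3256 and 3201 with CM, against 2794, 3089.8 and 3102 with TGFb (log2 fold change 0.12 ± 0.09, limma adjusted p = 0.44). None of these 7 passed. The members that were lower include Serpina3k at 91682, 100086 and 113325 with CM, against 166909, 167739 and 169128 with TGFb (log2 fold change -0.73 ± 0.10, limma adjusted p = 9.4e-06; -0.44 under quantile normalization) and Serpina3m at 43624, 39939 and 55577 with CM, against 74957, 74786 and 75608 with TGFb (log2 fold change -0.71 ± 0.10, limma adjusted p = 4.3e-06), whose gene models overlap in the table and share reads. Lifr, a receptor that signals to STAT3, was lower at 4468, 4578 and 3957 with CM, against 6020.0, 6648 and 5890.4 with TGFb (log2 fold change -0.51 ± 0.09, limma adjusted p = 0.00021). It was 1 of 5 genes lower and 1 higher among 25 of the IL-6, gp130 and STAT3 list, with 2 lower under equal totals and 2 or 3 without the second CM, the first TGFb or the third TGFb library. Complement and coagulation factors had 3 higher (1 without the second CM or the first TGFb library) and 5 lower (3 under quantile normalization) of 37 tested.

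Most genes of the sterol pathway were higher with CM. Of 30 genes of cholesterol synthesis and uptake 29 were tested, 23 (79.3%) were higher, 0 were lower at the limma threshold and 6 did not pass, with a median of 0.53. Lss, which closes the ring of lanosterol, read 2618, 3201 and 3007 with CM, against 994, 1153 and 1265 with TGFb (log2 fold change 1.37 ± 0.12, limma adjusted p = 1.5e-09). Hmgcs1, the synthase ahead of the statin target, read 30095, 33284 and 34331 with CM, against 16397, 17882 and 17808 with TGFb (log2 fold change 0.91 ± 0.09, limma adjusted p = 6.1e-09). Cyp51, the lanosterol demethylase that overlaps Akap9, read 8551, 9936 and 9939 with CM, against 4898, 5237 and 5083 with TGFb (log2 fold change 0.90 ± 0.09, limma adjusted p = 7.5e-09). Every CM library of these 3 genes lay above every TGFb library. The transcription factor gene Srebf2 (0.52, adjusted p = 0.00036), named after its value was seen, was higher and remained so whichever library was left out.

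The promoter of Hmgcs1 is shown as that of a sterol gene higher with CM which holds TCACNCCAC, letters of the sterol response element that SREBP proteins bind. It is chr13:119690101-119690400 of GRCm38.p6 on the plus strand, with the match in capitals.
Hmgcs1: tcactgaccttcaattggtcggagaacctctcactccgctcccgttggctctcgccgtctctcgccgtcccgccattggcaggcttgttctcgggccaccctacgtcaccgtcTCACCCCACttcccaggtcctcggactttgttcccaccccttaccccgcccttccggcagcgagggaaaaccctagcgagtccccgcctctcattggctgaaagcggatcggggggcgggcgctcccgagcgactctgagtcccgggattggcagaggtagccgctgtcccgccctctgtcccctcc
It was the only match among 19 promoters of 15 of the 23 higher sterol genes, against a share of 1.24% over all 32851 promoters.

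Fatty acid and triglyceride synthesis followed with 11 genes higher and 2 lower of 34, all tested (median 0.24). Elovl6, the elongase of palmitate, read 3581, 3442 and 3324 with CM, against 1385, 1551 and 1229.7 with TGFb (log2 fold change 1.32 ± 0.10, limma adjusted p = 9.8e-11). Acacb and Acaca, the acetyl-CoA carboxylases, averaged 1734 ± 335 with CM and 625 ± 58.0 with TGFb (1.46 ± 0.14, adjusted p = 6.1e-09) and 3317 ± 268 with CM and 1912 ± 188 with TGFb (0.80 ± 0.10, adjusted p = 9.5e-07; normalized values, mean ± SD, n = 3 each). Acaca overlaps a predicted gene. Fasn, fatty acid synthase, read 7657, 9380.2 and 7658 with CM, against 4234, 4437 and 4676 with TGFb (log2 fold change 0.88 ± 0.10, limma adjusted p = 1.8e-07). No treatment overlapped in these 4. Pklr, liver pyruvate kinase, which overlaps Hcn3, read 1305, 1698 and 1491 with CM, against 769.7, 807 and 713 with TGFb (log2 fold change 0.97 ± 0.13, limma adjusted p = 2.9e-06), and Gckr, the regulator of glucokinase, 1532, 1579 and 1683 with CM, against 1016, 853 and 926 with TGFb (log2 fold change 0.78 ± 0.13, limma adjusted p = 5.8e-05). Of 30 tested genes of glucose production and glycolysis, 7 were higher and 2 lower. Fatty acid oxidation had 6 genes higher and 2 lower of 33, but 2 or 3 higher without any one of the TGFb libraries, and 4 lower without the first CM library. Targets of PPARalpha had 3 higher (1 without the first TGFb library) and 3 lower of 28. Apoa4, an apolipoprotein, was lower at 3419.8, 3669 and 4268 with CM, against 7627, 8175 and 7768 with TGFb (log2 fold change -1.06 ± 0.11, limma adjusted p = 4.6e-08), and the lipoprotein list had 2 higher and 6 lower of 26, with 2 lower under equal totals and 2 or 3 without any one library except the third CM library.

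Iron handling and NRF2 genes held calls in both directions. Of 24 iron genes, all tested, 9 were higher and 3 lower (median 0.14). Tfrc, the transferrin receptor, read 4224, 2979 and 3403 with CM, against 1549, 1697 and 1544 with TGFb (log2 fold change 1.13 ± 0.12, limma adjusted p = 7.4e-08). Ncoa4, which delivers ferritin for breakdown, read 10189, 8619 and 10396 with CM, against 18906, 17138 and 16446 with TGFb (log2 fold change -0.85 ± 0.09, limma adjusted p = 2.1e-08). Slc39a14, a zinc and iron importer, read 12599, 12344 and 10961 with CM, against 7817, 8536 and 8315 with TGFb (log2 fold change 0.54 ± 0.08, limma adjusted p = 2.4e-05). Hmox1, haem oxygenase, read 27149, 25139.5 and 27788 with CM, against 40100.1, 41227 and 43072 with TGFb (log2 fold change -0.64 ± 0.08, limma adjusted p = 1.1e-06). Tfrc and Slc39a14 thus lay higher and Ncoa4 and Hmox1 lower with CM, each without overlap. Of 33 tested NRF2 and glutathione genes, 9 were higher and 4 lower, and 1 or 2 were lower with equal totals or without any one library except the third CM library. Slc7a11, the cystine importer, read 9799, 8842 and 9482 with CM, against 4770.4, 4786 and 4885 with TGFb (log2 fold change 0.96 ± 0.11, limma adjusted p = 1.8e-07). Gsta1, a glutathione transferase with close copies, read 953, 1083 and 1097 with CM, against 353, 136 and 331 with TGFb (log2 fold change 2.05 ± 0.25, limma adjusted p = 5.5e-07).

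Of 6 core hepatocyte genes (Alb, Hnf4a, Cyp2e1, Cyp3a11, Cyp7a1 and Cps1), Hnf4a was higher, Cyp2e1 lower and the other 4 did not pass. The set of markers summed above also holds Apoa1 and Ttr, named here after their values were seen. Both were lower, Apoa1 at -0.35 (limma adjusted p = 0.023) and Ttr at -0.41 (limma adjusted p = 0.043). The call of Apoa1 held in 3 and that of Ttr in 1 of 6 fits that each left out 1 library. Alb, albumin, held 6.94, 6.90 and 6.80% of the summed values with CM, against 7.77, 7.44 and 7.93% with TGFb. These shares did not overlap, but Alb did not pass the test on the normalized values (log2 fold change -0.23 ± 0.19, limma adjusted p = 0.51). That standard error is not the spread of Alb alone. It rests in part on genes of similar level, with 17 prior beside 12 residual degrees of freedom. Hnf4a, the master transcription factor of hepatocytes, read 6446, 6627 and 5589 with CM, against 4321, 4797 and 4283 with TGFb (log2 fold change 0.48 ± 0.11, limma adjusted p = 0.0024). Its CM libraries lay above all TGFb libraries. Cyp2e1, the ethanol-oxidizing enzyme of pericentral cells, read 89468, 95059.8 and 93778 with CM, against 123246, 127408 and 117682 with TGFb (log2 fold change -0.40 ± 0.09, limma adjusted p = 0.0025), and it did not pass under quantile normalization (-0.21, adjusted p = 0.16). Cyp3a11, the main drug-metabolizing enzyme, read 99948, 81863 and 106272 with CM, against 108068, 105194 and 106261 with TGFb (log2 fold change -0.16 ± 0.10, limma adjusted p = 0.37). Cyp7a1, the rate-limiting enzyme of bile acid synthesis, read 256, 331 and 401 with CM, against 277, 255 and 290.3 with TGFb (log2 fold change 0.24 ± 0.21, limma adjusted p = 0.53), and Cps1, of the urea cycle, 42497, 35768 and 35882 with CM, against 35923, 33621 and 36616 with TGFb (log2 fold change 0.10 ± 0.09, limma adjusted p = 0.53). These last 3 did not pass, and each overlapped between the treatments. Of the lineage transcription factors, 5 of 26 were higher and 1 lower, but 2 or 3 were higher without the first CM or any one TGFb library. Periportal genes had 3 higher and 1 lower of 23 (2 lower without the third CM library), and pericentral genes 1 higher and 5 lower of 24, beside 5.76% higher and 6.09% lower over all genes tested.

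The negative acute-phase and plasma proteins, which the inflamed liver makes less of, had 0 higher at the limma threshold and 7 lower of 21 tested (median -0.23). Under quantile normalization 3 were lower, and 4 with equal totals or without the first CM, the second TGFb or the third TGFb library. Ahsg, fetuin, read 59323, 63339.5 and 57866 with CM, against 77483, 78531 and 82051 with TGFb (log2 fold change -0.40 ± 0.10, limma adjusted p = 0.0047), and Igf1, the growth factor that growth hormone induces in liver, 16633, 14563 and 17038 with CM, against 24454, 25118 and 24886 with TGFb (log2 fold change -0.63 ± 0.09, limma adjusted p = 1.1e-05). Cish, a further target of growth hormone through STAT5, read 493, 438 and 558 with CM, against 1603, 1265 and 1633 with TGFb (log2 fold change -1.59 ± 0.15, limma adjusted p = 4.5e-09), while Irs1, the insulin receptor substrate, was higher at 374, 316 and 285 with CM, against 108, 156 and 125 with TGFb (log2 fold change 1.33 ± 0.25, limma adjusted p = 0.00031). These 4 genes showed no overlap. Of 44 tested genes that metabolize drugs and other xenobiotics, 2 were higher and 8 lower. Under quantile normalization 5 were lower, and 4 or 5 without the second CM or the third TGFb library. Among the 8 was Cyp2a5 at 8159.8, 7765 and 9952 with CM, against 11728, 11948 and 11932 with TGFb (log2 fold change -0.47 ± 0.09, limma adjusted p = 0.00028). Of 43 tested genes of amino acid breakdown and the urea cycle, 8 were higher and 1 lower (4 or 5 higher without the second CM, the first TGFb or the third TGFb library). Gldc, of glycine breakdown, read 1527, 1779.7 and 1498 with CM, against 567, 762 and 752 with TGFb (log2 fold change 1.21 ± 0.14, limma adjusted p = 3.1e-07). Slc7a2, the importer of arginine and lysine, read 12254, 10283 and 10481 with CM, against 4846, 4793 and 5516 with TGFb (log2 fold change 1.12 ± 0.08, limma adjusted p = 5.2e-11). Of the bile transporters, Abcc4 read 723, 951 and 683 with CM, against 396, 427 and 321 with TGFb (log2 fold change 1.04 ± 0.16, limma adjusted p = 3.8e-05) and Abcc2 9910.1, 10738 and 8896 with CM, against 6539, 7104 and 6765 with TGFb (log2 fold change 0.53 ± 0.09, limma adjusted p = 8.5e-05), both higher with CM. The bile acid list had 3 higher (9.68%) and 2 lower (6.45%) of 31, beside 5.76% and 6.09% over all genes tested. The growth hormone and IGF list had 3 higher (1 without the first TGFb library) and 5 lower of 26.

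Stress and growth-arrest genes were lower in part. Of 37 tested genes that respond to unfolded proteins or to a lack of amino acids, 8 were lower and 2 higher (4 higher with equal totals). Eif2ak3, the kinase PERK, read 996, 1318 and 959 with CM, against 2331, 2326 and 2379 with TGFb (log2 fold change -1.12 ± 0.12, limma adjusted p = 3.8e-08). Ddit4, an inhibitor of mTORC1, read 755, 1227 and 922 with CM, against 2228, 2244 and 2379.7 with TGFb (log2 fold change -1.27 ± 0.16, limma adjusted p = 1.9e-06). Creb3l2, a membrane-bound transcription factor, read 3149, 3377 and 3354 with CM, against 5830.1, 5681 and 6339 with TGFb (log2 fold change -0.85 ± 0.11, limma adjusted p = 9.2e-07). The lowest TGFb library stood above the highest CM library in all 3. Of 38 tested p53 targets and growth-arrest genes, 10 were lower and 2 higher, and 4 to 6 were lower without the second CM library or any one TGFb library and 5 with equal totals. Btg2, an antiproliferative gene, read 3142, 3221 and 3028 with CM, against 4772, 4831 and 4878 with TGFb (log2 fold change -0.62 ± 0.08, limma adjusted p = 1.7e-06), and Plk2, a kinase of the same list, was higher at 3231, 3148 and 3023 with CM, against 1901, 2155 and 1819 with TGFb (log2 fold change 0.68 ± 0.09, limma adjusted p = 5.3e-06). Cell cycle genes were called for 5 of 36 tested, 2 higher (5.56%, with 0 or 1 without any one library except the third TGFb library) and 3 lower (8.33%). These shares were near the 5.76% higher and 6.09% lower over all genes tested. Mcm6, of the replicative helicase, read 863, 637 and 638 with CM, against 2152, 1847 and 1881 with TGFb (log2 fold change -1.47 ± 0.15, limma adjusted p = 2.8e-08). Dusp6, a phosphatase of ERK that ERK induces, was higher at 3593, 2994 and 3921 with CM, against 1564, 1680.0 and 1585 with TGFb (log2 fold change 1.11 ± 0.10, limma adjusted p = 4.6e-09). Immediate-early genes had 1 higher (2 without the second CM or the third CM library, 3 with equal totals) and 5 lower of 30. Genes of scavenger receptors, vesicles and lysosomes had 1 higher (4.55%) and 3 lower (13.6%) of 22, beside the same shares over all genes.

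Calls among ribosomal protein and respiratory chain genes depended on several single libraries, and fell furthest without the second CM library. This library held 0.363% of its values in the 44 cytosolic ribosomal protein genes, against 0.482 and 0.470% in the other CM libraries, and 0.407 to 0.430% with TGFb. Of the 44 genes 10 were lower and 0 higher with CM at the limma threshold, 2 were lower without the second CM library and 16 without the third, and 3 to 6 without the first CM, the second TGFb or the third TGFb library. Rps14 read 2144, 1325 and 2674 with CM, against 3103, 3344 and 3543 with TGFb (log2 fold change -0.76 ± 0.17, limma adjusted p = 0.0020), and -0.47 without the second CM library. Of 37 tested nuclear-encoded genes of the respiratory chain 6 were lower, 1 without the second and 10 without the third CM library, and 3 without the first CM, the first TGFb or the third TGFb library. Ndufb3, a subunit of complex I, read 285, 246 and 299 with CM, against 456, 517 and 528 with TGFb (log2 fold change -0.86 ± 0.19, limma adjusted p = 0.0022). By limma 0 of the 13 mitochondrially encoded genes were called (median -0.05).

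The WT hepatocytes treated with TNFa, the main cytokine known to activate NF-kappaB, give a further level beside these values, with 3 libraries. A comparison with either treatment would share its libraries with the one above, so the levels are given without a test. Pmepa1 read 250.3, 295 and 299 with TNFa, Ccn2 2555, 3550.3 and 3328 and Cldn4 6454, 6144 and 7059.7. For all 3 genes these levels lie nearer the CM than the TGFb libraries. Those of Cldn4 and, narrowly, of Pmepa1 lie above every CM library, and those of Ccn2 overlap the CM libraries. Cxcl1 read 661, 605 and 661 with TNFa and Ccl2 3960.3, 3132 and 4236, and Tnfaip3 2792, 3023 and 3102. Here the TNFa libraries lie below the CM libraries for Cxcl1 and above them for Ccl2. Lss read 1752, 2163 and 2176 with TNFa and Hmgcs1 21473, 22546 and 26425, between the levels with CM and with TGFb. Cyp51 read 5605, 4994 and 5723 with TNFa, which overlaps its TGFb libraries.

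The same treatments in Mtdh KO hepatocytes gave a second comparison in libraries that the first does not use, although all libraries share the estimate of the spread. Mtdh encodes metadherin, known as an oncogene product linked to NF-kappaB signalling. In KO cells 751 genes (5.2%) were higher and 779 (5.39%) lower with CM than with TGFb, together 10.6%. With equal totals 1241 were higher and 491 lower, which is 71.7% higher. Of the calls, 360 genes were higher in both genotypes, which is 47.94% of the KO list and 43.27% of the WT list. A further 387 were lower in both, 49.68% of the KO list and 43.98% of the WT list. Only 2 genes were lower in KO and higher in WT, and 5 the reverse. Of the 832 genes higher in WT, 723 (86.9%) had a positive fold change in KO, and of the 880 lower genes 792 (90.0%) a negative one. Over all genes tested the fold changes correlated at 0.333 (Pearson), where genes are not independent.

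**Figure D4:**
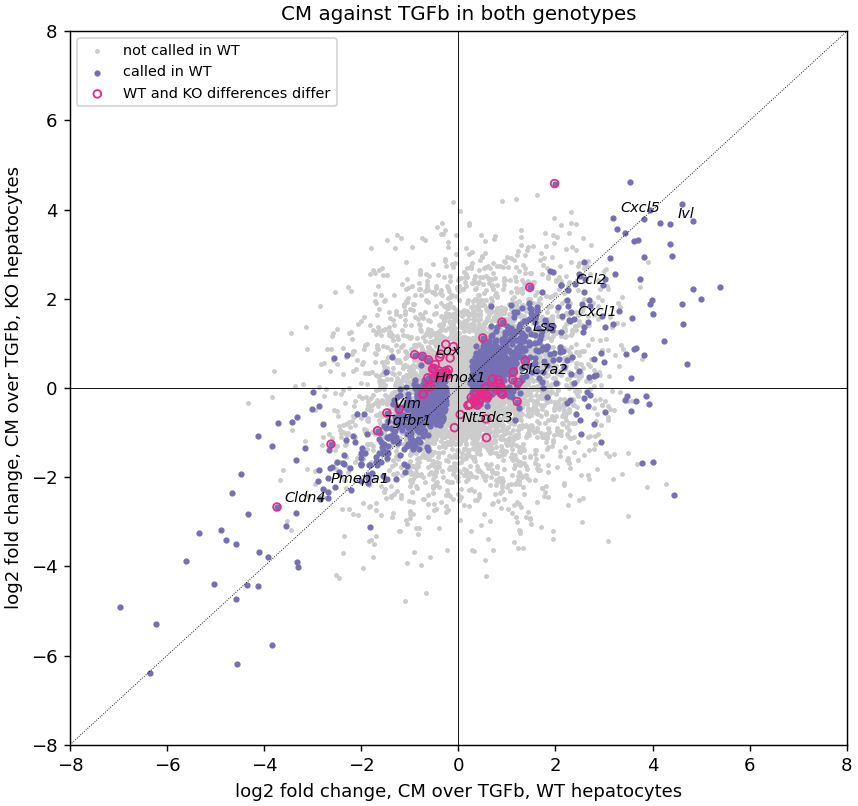
Log2 fold change of CM over TGFb in WT hepatocytes (horizontal axis) and in KO hepatocytes (vertical axis); each point is 1 of 14455 tested genes, coloured where called in WT and ringed where the WT and KO differences differ at a limma adjusted p below 0.05. Genes called in WT lie mostly in the upper right and lower left quadrants, and the 71 ringed genes include Cldn4, Slc7a2, Lox, Nt5dc3, Tgfbr1, Hmox1 and Vim.

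By group, the TGFb feedback and target genes had 14 lower and 1 higher in KO cells, chemokines 9 higher and 2 lower, interferon-stimulated genes 18 higher and 1 lower, and cholesterol genes 20 higher and 1 lower. Pmepa1 read 208, 286 and 282 with CM, against 1163, 1419 and 1131 with TGFb in KO cells (log2 fold change -2.26 ± 0.17, adjusted p = 7.0e-11). Cxcl1 read 896, 859 and 933 with CM, against 228, 388 and 358 with TGFb in KO cells (1.5 ± 0.17, adjusted p = 1.4e-07), and Lss 3016, 3034 and 2812 with CM, against 1449.7, 1192 and 1329 with TGFb (1.16 ± 0.12, adjusted p = 4.3e-08). The direction in these 3 genes was that of the WT cells. Some hepatocyte gene lists had more members lower in KO cells than in WT cells by count, with 11 of 24 pericentral genes and 9 of 31 bile acid genes lower in KO, against 5 and 2 in WT. Drug and xenobiotic metabolism had 9 lower in KO and 8 in WT of 44, and lipoproteins 4 in KO and 6 in WT of 26. Over all genes tested 5.39% were lower in KO and 6.09% in WT. Those list differences were not tested as such. The macrophage marker list summed to 8066 to 8280 with CM and to 6837 to 8237 with TGFb in KO libraries, which overlap, and 3 of its 25 genes were higher with CM there.

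The difference between the genotypes passed for 71 genes (0.491% of those tested), 35 with a higher and 36 with a lower CM effect in KO (limma, KO minus WT on the log2 scale). At an unadjusted p below 0.05 there were 1572. The number depended on single libraries, with 164 higher and 73 lower without the third CM WT library, and 8 higher and 7 lower without the third TGFb WT library. Tgfbr1 read 5211, 5308 and 4789 with CM, against 9432, 10420.5 and 9884 with TGFb in KO cells, where TGFb libraries lay lower than in WT cells, and the difference was 0.71 ± 0.11 (adjusted p = 0.0016). Cldn4 read 5889.5, 5829 and 5129 with CM, against 34491, 34035 and 38606 with TGFb in KO cells, where CM libraries lay higher than in WT cells (1.07 ± 0.13, adjusted p = 7.8e-05). Slc7a2 read 13847, 14432 and 13033 with CM, against 11592, 12370.2 and 12450.1 with TGFb in KO cells, a smaller gap than in WT cells (-0.94 ± 0.12, adjusted p = 7.8e-05). Lox reversed, with 3553, 2988 and 2580.4 with CM, against 1945, 2371 and 1606 with TGFb in KO cells (1.24 ± 0.19, adjusted p = 0.0014). Clic4, a chloride channel protein known as a TGFb target, read 25202, 25752 and 24942 with CM, against 32448, 38335 and 35016 with TGFb in KO cells, and 17946, 17109 and 19546 with CM, against 39659, 42388 and 45020.3 with TGFb in WT cells (0.74 ± 0.12, adjusted p = 0.0025). These 5 differences were called in every alternative tried.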

How the data were processed

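RNA of mouse hepatocytes was sequenced in 18 libraries, 3 for each of 6 groups (CM, TGFb or TNFa in KO or WT mice). The deposited table holds a normalized signal per gene, for which the authors scaled read counts with DESeq2 after alignment with STAR 2.7.8a to mm39 and work in Partek, per the submitters' processing notes. Whole reads could not be recovered: 80.5 to 84.0% of the values up to 20 reads came out within 0.05 of a whole read. Depth (19.4 to 35.6 M reads over the series) is therefore an estimate, and no counting interval is given.

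Values were tested as log2(value + 1), which understates the change of low genes, with limma 3.58.1 in R 4.3.3 (trend in the prior variance, 12 residual degrees of freedom) in 1 two-sided fit of all 18 libraries. Of 16873 genes, 14455 reached a value of 10 in at least 3 libraries and were tested, and a gene was called at a Benjamini-Hochberg adjusted p below 0.05 over these. Errors of log2 values are standard errors. The labels give 3 biological replicates a group without naming the animals, so p-values rest on the spread between libraries within all 6 groups. That spread is moderated by a prior drawn from genes of similar level (17 degrees of freedom).

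Genes were named by rule: the strongest rises and falls among called genes, up to 12 of each, at a mean of at least 50 and without overlap; 50 core genes, some of which are not reported here; up to 4 called members of each of 42 lists by p; and up to 8 genes for the difference between genotypes. Members and lists were chosen with earlier results of these data known. Promoters were matched by symbol, and motifs searched on both strands with Python 3.11.15. Overlapping genes cannot be told apart, since the use of strand is not stated, and reads of near-identical paralogs may be split. Alternatives were another pseudocount, filter or scaling, quantile normalization, library weights, a replicate block, the compared groups alone, and leaving out each library.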

Additional observations from a re-analysis of the deposited data

Results flagged for a closer look

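For 18 genes of the named genes and lists, the effect of CM against TGFb differed between KO and WT hepatocytes by limma's test of the difference (adjusted p below 0.05). Differences are KO minus WT on the log2 scale, so a positive one means that CM stood higher relative to TGFb in KO cells.

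Among genes of junctions, matrix and TGFb signalling, the difference was 1.24 for Lox, 1.07 for Cldn4, 0.91 for Vim, 0.74 for Clic4 and 0.71 for Tgfbr1. Lox read 3553, 2988 and 2580.4 with CM, against 1945, 2371 and 1606 with TGFb in KO cells, and 3288, 3355 and 4724 with CM, against 5189.8, 5668 and 6366 with TGFb in WT cells, so its direction was opposite in the 2 genotypes, with a call in each. Vim read 1625, 1707 and 1793 with CM, against 2566, 2502 and 2481 with TGFb in KO cells, and 1187, 1646 and 2213 with CM, against 4406, 4495 and 4675 with TGFb in WT cells, and its difference was called in 5 of 12 fits that each left out 1 library.

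Among transport and metabolic genes, the difference was -0.94 for Slc7a2, -0.80 for Gckr, -0.78 for Uroc1, a histidine-breakdown enzyme, -0.77 for Tfrc, -0.73 for Aldh1a1, a retinal dehydrogenase, -0.73 for Pck1, of glucose production, -0.70 for Slc39a14, -0.59 for Acsl1, which activates fatty acids, and -0.56 for Slc2a2, the liver glucose transporter. Those of Slc7a2, Slc39a14 and Aldh1a1 were called in all 12 fits that each left out 1 library. Those of Gckr, Uroc1, Tfrc and Slc2a2 were called in 2 of 12, that of Acsl1 in 4 and that of Pck1 in 5.

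The difference was -0.81 for Nt5dc3, which overlaps a predicted gene on the same strand, and -0.76 for Ep400, a chromatin remodeller. It was 0.68 for Pcna, the sliding clamp of replication, called in 9 of 12, and 0.66 for Hmox1, called in all 12. Hmox1 read 44299, 44084 and 42321 with CM, against 42826, 41753 and 44132 with TGFb in KO cells, and 27149, 25139.5 and 27788 with CM, against 40100.1, 41227 and 43072 with TGFb in WT cells. Aldh1a1 and Pcna were also called in opposite directions. Aldh1a1 read 9222, 9522 and 8076 with CM, against 12006, 10401 and 10129.8 with TGFb in KO cells (log2 fold change -0.28 ± 0.09, adjusted p = 0.036), and 6151, 5460.4 and 6172 with CM, against 4399, 4333 and 4288 with TGFb in WT cells (0.45 ± 0.09, adjusted p = 0.00055). Pcna read 3282, 3098 and 3427 with CM, against 2594, 2905 and 2476 with TGFb in KO cells (0.30 ± 0.09, adjusted p = 0.033), and 2240.1, 1954 and 2103 with CM, against 2586, 2704 and 2928 with TGFb in WT cells (-0.38 ± 0.09, adjusted p = 0.0048). In KO cells the call of Aldh1a1 was lost without the first CM, the third CM or the first TGFb library, and that of Pcna without any of these or the third TGFb library. Groups of 3 libraries are too small for a check of single outlying values.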

How the results depend on the processing

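No called gene that the text names by rule changed direction under any alternative run. Over these genes and alternatives, 3338 results kept their side of the threshold, 122 lost the call and 3 gained it, and those named in the report are given there. In KO cells 485 to 797 were higher and 533 to 708 lower with 1 library left out, and with equal totals 1241 higher and 491 lower, at a median log2 fold change of 0.10 over all genes. In WT cells the calls numbered 585 to 739 higher and 593 to 932 lower with 1 library left out, and 399 of the higher (48.0%) and 430 of the lower (48.9%) were called in all 6 of those fits. Fitting only the groups compared gave 582 lower in WT. In WT cells equal totals moved that median to 0.09. The difference between genotypes was the least stable count, with 8 to 164 higher and 7 to 73 lower when 1 library was left out, 21 higher without a filter and 19 higher in a fit of the groups compared; 7 and 5 genes were called in all 12 fits without 1 library. The cause was not tested. Same-numbered libraries deviated together only weakly, at correlations of 0.017, -0.018 and 0.028 in KO and 0.019, 0.026 and 0.025 in WT, so the numbers were not taken as pairs, although each WT library correlated best with its own number. With a replicate block 716 were higher and 723 lower in KO, 806 and 831 in WT, and 27 and 24 for the difference. Over all alternatives, 28 of 108 counts over all genes and 175 of 1344 list counts moved by more than 1.5 times. Genes that reached a value of 10 in fewer than 3 libraries were too low to be tested.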
